A study of Sus scrofa with 2 samples.

Results

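miR-30 is a family of microRNAs (miRNAs) that share a seed, the bases at positions 2 to 8 that choose the mRNAs a miRNA binds. Its 5 members, miR-30a, miR-30b, miR-30c, miR-30d and miR-30e, were followed in small RNA libraries of pig oocytes, out of 99 miRNA entries that were counted. A read was a member when it was 18 to 26 nt long, held nt 2 to 18 of that member's 5p form without mismatch and began within 2 nt of its 5' end. The rule itself uses no measured difference between the libraries. The family held 112 distinct sequences, 77 of the 720572 in the control library and 85 of the 689709 in the Dicer KD library.

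The oocytes had matured in vitro for 42 h and were at metaphase II. In the Dicer KD group, siRNA against Dicer had been given at the germinal vesicle stage, before maturation, and what the control oocytes received is not given in the sources used here. Each group was 1 library, from an unstated number of oocytes, of 11836160 reads (control) and 11982925 reads (Dicer KD). With 1 library per group there was no test between groups, so each comparison sets these libraries side by side and says nothing of replicate spread. All intervals are 95% intervals and cover the counting error of reads alone. PCR copies were not marked by molecular identifiers, so reads are not single molecules, and the intervals can be too narrow for counts of molecules. Dicer mRNA and the mRNAs that define an oocyte are not measured by small RNA libraries, so neither the knockdown nor the cell type could be checked on them.

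A miRNA hairpin is cut by Drosha in the nucleus and by Dicer in the cytoplasm, which leaves a duplex of a 5p and a 3p strand. One strand is loaded into an Argonaute protein and the other is mostly degraded. miR-30 members are made in many tissues, and their known targets include mRNAs of autophagy and of the epithelial to mesenchymal transition. In mouse oocytes repression by miRNAs is known to be weak, and the loss of Dicer is known to act there through endogenous siRNAs.

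The most abundant read of each member, taken here as its 5p form and written with T as in the tables, shows where the members are alike and where they part. Capitals mark the seed, which all of them share.
miR-30a: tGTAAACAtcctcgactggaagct
miR-30d: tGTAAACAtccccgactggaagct
miR-30e: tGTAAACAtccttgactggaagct
miR-30c: tGTAAACAtcctacactctcagct
miR-30b: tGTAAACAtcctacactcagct
Within nt 2 to 18, counted from the 5' end of these reads, miR-30d parts from miR-30a at 1 position (T12C, the base of miR-30a first), and miR-30e at another (C13T). miR-30b and miR-30c have the same bases from nt 2 to 18, and part from miR-30a at 3 (C13A, G14C and G18C). They were told apart by nt 19. No read ended before that base, so none was left as shared by these members, with 0 of 8131 control and 0 of 9942 Dicer KD family reads.

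The family as a whole was higher in the Dicer KD library. Scaled to 1000000 library reads (RPM), it stood at 687 in the control library, with an exact Poisson interval of 672 to 702. Dicer KD oocytes had 829.7 RPM (814 to 846), which gives a ratio of Dicer KD to control of 1.21 (exact conditional interval 1.17 to 1.24). It made up 1.06% of the reads of all counted miRNAs in the control library and 1.27% in the other. All 99 entries together, miR-30 included, had a ratio of 1.01 (1.005 to 1.01), so the family was also higher relative to that total. Most of the total, 769560 control and 785415 Dicer KD reads, was miR-10b (425561 and 444913) and miR-182 (219275 and 195813). The log2 ratio of the family, 0.27, was near the median of 0.28 over the 55 other listed miRNAs with at least 100 reads.

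**Figure D1:**
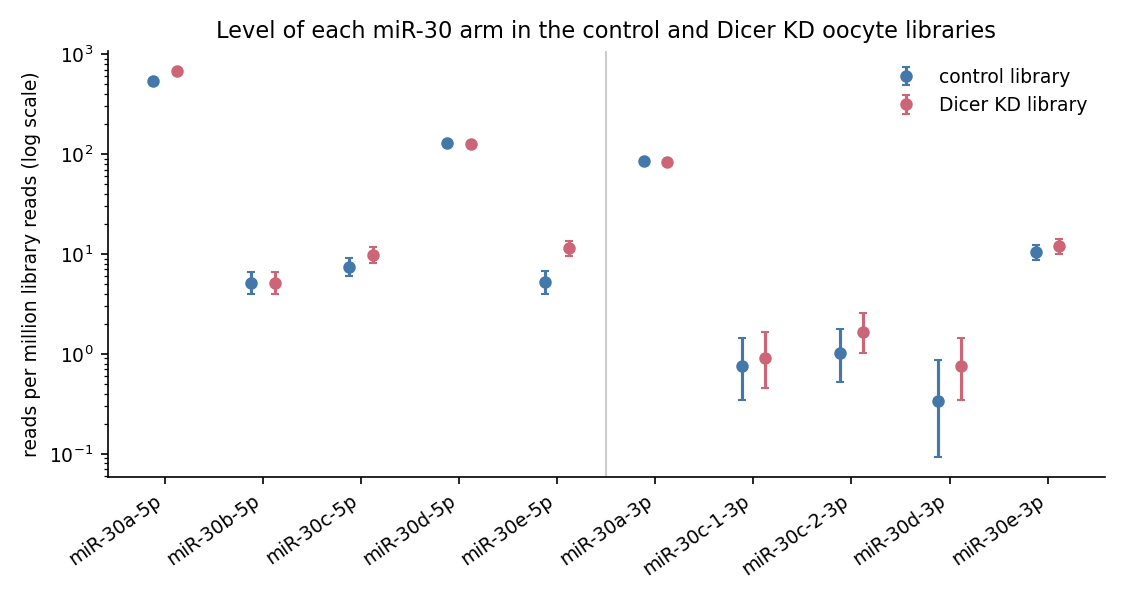
Level of each 5p arm (left of the line) and 3p arm (right) in RPM on a log axis, with exact 95% Poisson intervals, 1 library per group. miR-30a-5p, at 539 and 678 RPM, lies above every other arm, and miR-30e-5p is the 5p arm whose points lie farthest apart, at 5.24 and 11.3 RPM; miR-30b-3p had no reads and is not drawn.

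miR-30a carried most of the family. Control oocytes gave 6374 reads of it and Dicer KD oocytes 8128, or 539 RPM (525 to 552) and 678 RPM (664 to 693). It was higher in the Dicer KD library, with a ratio of 1.26 (1.22 to 1.30), and the intervals of its levels did not overlap. Of all family reads it held 78.4% in control oocytes, with an exact binomial interval of 77.5 to 79.3%, against 81.8% (81.0 to 82.5%) with Dicer KD. Among the 99 entries it ranked 7th by level in the control library and 8th in the Dicer KD library.

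miR-30d followed, at nearly the same level in both libraries. It had 1546 and 1499 reads, or 131 RPM (124 to 137) in control and 125 RPM (119 to 132) with Dicer KD. The ratio was 0.958 (0.891 to 1.03), so a difference beyond counting error was not detectable. The share of miR-30d in the family was 19.01% (18.2 to 19.9%) in control and 15.1% (14.4 to 15.8%) in Dicer KD oocytes, and these intervals did not overlap. miR-30a outnumbered miR-30d 4.12-fold (3.90 to 4.36) in the control library and 5.42-fold (5.13 to 5.73) in the Dicer KD library.

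The other members were rare and together made up 2.60% of control and 3.17% of Dicer KD family reads. miR-30c had 88 and 117 reads, or 7.43 RPM (5.96 to 9.16) and 9.76 RPM (8.07 to 11.7), a ratio of 1.31 (0.988 to 1.75). miR-30b had 61 and 62 reads, or 5.15 RPM (3.94 to 6.62) and 5.17 RPM (3.97 to 6.63). Its ratio of 1.004 (0.694 to 1.45) leaves room for a difference in either direction at this depth. miR-30e had 62 control and 136 Dicer KD reads, or 5.24 RPM (4.02 to 6.71) and 11.3 RPM (9.52 to 13.4). Its ratio was 2.17 (1.59 to 2.97), and the intervals of its levels did not overlap.

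In the control library the order of levels was miR-30a, miR-30d, miR-30c, miR-30e and miR-30b, and in the Dicer KD library miR-30e came before miR-30c. miR-30e and miR-30b could not be ranked in the control library, with a ratio of 1.02 (0.702 to 1.47). In the Dicer KD library miR-30e was 2.19-fold above miR-30b (1.61 to 3.01). miR-30c was 1.42-fold above miR-30e in the control library (1.01 to 1.997), and 0.860 times its level in the Dicer KD library (0.666 to 1.11).

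A miRNA was called higher or lower when its ratio reached 2 or fell to 0.5, provided the libraries held 100 or more reads of it between them. All 5 members had that many reads, and 1 of them, miR-30e, was called higher and 0 were called lower. Among the 55 other listed miRNAs with at least 100 reads, 25.5% were called higher and 1.82% lower (27.3% in all), so 1 member in 5 is no more than this background. Over every other stretch of nt 2 to 18 that occurred 100 or more times in reads of 18 to 26 nt, miRNA or not, 8389 in number, 3.95% were called higher and 5.01% lower (8.95% in all). The median log2 ratio was 0.33 over the 5 members, from -0.06 for miR-30d to 1.11 for miR-30e, and 0.28 over the 55 other miRNAs. Over the stretches, leaving out any with 0 reads in a library, it was -0.11, with quartiles of -0.42 and 0.22. The most abundant miR-30e read alone, with 49 and 89 reads, had a ratio of 1.79 (1.252 to 2.60), under the 2-fold line.

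**Figure D2:**
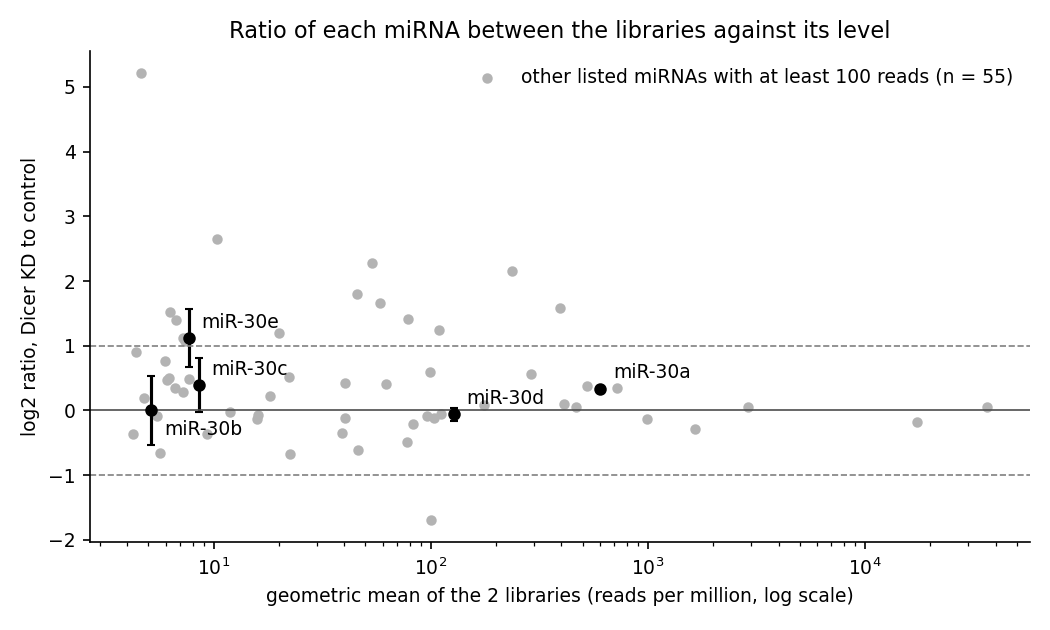
Log2 ratio of Dicer KD to control against level, for the 5 miR-30 members (black, with exact 95% intervals) and 55 other listed miRNAs (grey), with dashed lines at 2-fold. The members lie within the cloud of other miRNAs, and miR-30e lies above the upper line.

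The miRNAs nearest to a member in level, taken as distance in log2 RPM over the 2 libraries, differed from member to member. For miR-30a they were miR-21, at 463 and 599 RPM, let-7f, at 643 and 816 RPM, and miR-128, at 455 and 474 RPM. For miR-30d they were miR-191, with 113 and 109 RPM, let-7i, with 108 and 99.7 RPM, and miR-26a, with 98.7 and 93.0 RPM. For miR-30e they were miR-532 (5.07 and 10.7 RPM), miR-181b (4.90 and 10.7 RPM) and miR-222 (4.14 and 10.9 RPM). miR-30b lay closest to miR-9 (5.66 and 5.34 RPM) and miR-30c to miR-34c (6.51 and 9.10 RPM). The levels of both libraries enter the distance, so a neighbour's ratio near that of its member follows in part from this choice.

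Other cell types can bring their own miRNAs into an oocyte library, so short lists that mark them were counted. The stromal list (miR-143, miR-145, miR-199a-3p and miR-126) stood at 28.9 RPM in control and 126 RPM in Dicer KD oocytes, a ratio of 4.36 (3.88 to 4.92), with 3 and 4 of its 4 members seen. miR-143 carried this sum, with 286 and 1411 reads and a ratio of 4.87 (4.29 to 5.55), while miR-199a-3p had 54 and 93 reads, a ratio of 1.70 (1.20 to 2.42). The granulosa list (miR-21, miR-202-5p and miR-383) summed to 467 and 604 RPM, nearly all of it miR-21, with a ratio of 1.29 (1.248 to 1.34). Its other members differed in direction, with 47 and 27 reads of miR-383, a ratio of 0.567 (0.340 to 0.93), and 6 and 32 reads of miR-202-5p, a ratio of 5.27 (2.17 to 15.4). The blood list (miR-451, miR-486 and miR-144) summed to 35.5 and 47.1 RPM, with 2 of 3 members seen and miR-144 at 0 reads in both libraries. Nearly all of this sum was miR-486, with 413 and 559 reads, while miR-451 had 7 and 5. The muscle list (miR-1, miR-133a and miR-206) had 0 and 2 reads, with miR-1 and miR-206 at 0 reads in both libraries. The part of such RNA in the higher miR-30a and miR-30e was not tested.

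The members are made from 6 loci in the pig annotation (RefSeq, Sscrofa11.1), which lie in pairs. MIR30B is the next annotated gene to MIR30D. MIR30A is next to MIR30C-2, and MIR30E next to MIR30C-1, and both of the last lie within NFYC, which encodes a subunit of the transcription factor NF-Y. Reads of miR-30c can come from either of its loci. MIR30A and MIR30C-2 both overlap the uncharacterized gene LOC102157778. The products of the MIR30B and MIR30D pair summed to 136 RPM (129 to 143) and 130.3 RPM (124 to 137), a ratio of 0.960 (0.894 to 1.03). Those of the 2 other pairs, miR-30a, miR-30c and miR-30e, which cannot be split because of miR-30c, summed to 551 RPM (538 to 565) and 699 RPM (685 to 715), a ratio of 1.27 (1.23 to 1.31). This grouping follows the annotation but was looked at after the ratios were known, and miR-30a and miR-30d dominate the 2 sums.

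Most of the family's reads were 24 nt long. Reads of 24 nt were 76.0% of the control family reads (75.1 to 77.0%) and 74.2% of the Dicer KD family reads (73.3 to 75.04%). The mean length was 23.5 nt in both libraries (SD over reads 1.11 and 1.15). miR-30b was the exception, with 90.2% of its control reads and 91.9% of its Dicer KD reads at 22 nt. Its most abundant read is 2 nt shorter than that of miR-30c.

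**Figure D3:**
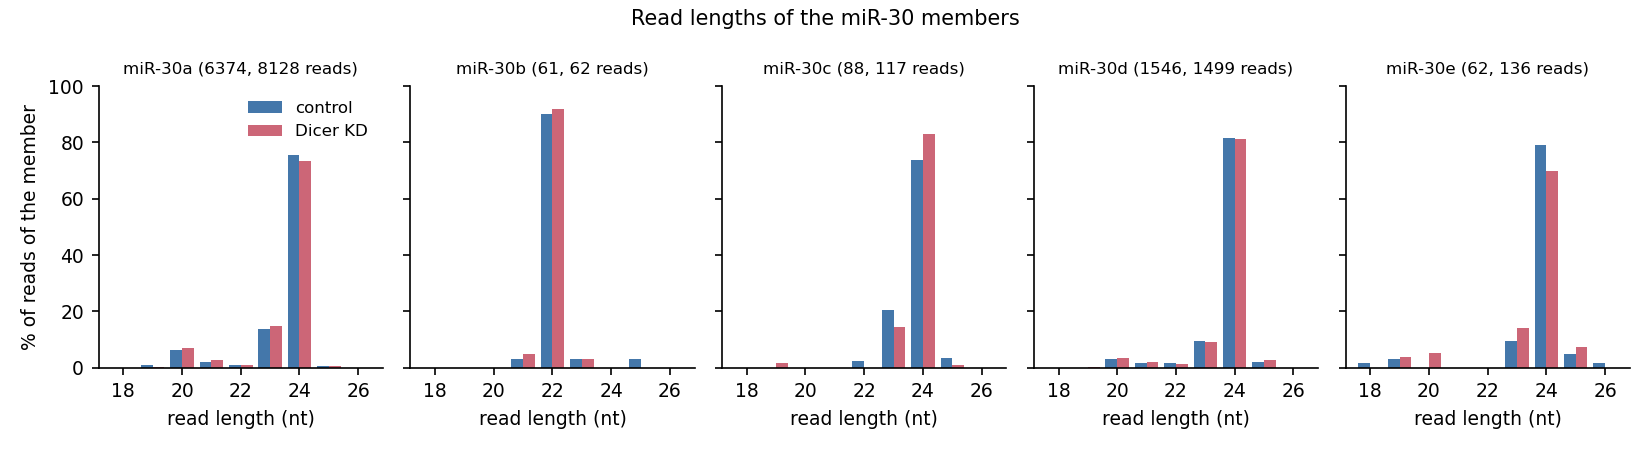
Read lengths of each member as a share of its reads, with control and Dicer KD bars side by side and the number of reads of each library in the panel titles. miR-30a, miR-30c, miR-30d and miR-30e peak at 24 nt and miR-30b at 22 nt, and miR-30a has a smaller second peak at 20 nt.

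miR-30a came in a ladder of 3' ends. Shortened forms with the same bases, summed, had a higher ratio, 1.40 (1.30 to 1.497), than the 24-nt form, 1.22 (1.18 to 1.27). These reads carry most of that pattern.
miR-30a, 24 nt: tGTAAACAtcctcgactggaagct
miR-30a, 23 nt: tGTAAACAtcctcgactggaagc
miR-30a, 22 nt: tGTAAACAtcctcgactggaag
miR-30a, 21 nt: tGTAAACAtcctcgactggaa
miR-30a, 20 nt: tGTAAACAtcctcgactgga
The 24-nt form had 4759 control and 5894 Dicer KD reads, a ratio of 1.22 (1.18 to 1.27). The 23-nt form had 775 and 1067 reads, with 1.36 (1.24 to 1.49), and the 20-nt form 403 and 577, with 1.41 (1.24 to 1.61). The 21-nt form had 138 and 210 reads, with 1.503 (1.21 to 1.88). The 22-nt form between them was scarce, with 40 and 63 reads and a ratio of 1.56 (1.03 to 2.37). Taken singly, each shortened form's interval overlapped that of the 24-nt form. All shortened forms with the bases of the 24-nt form made up 21.5% (20.5 to 22.6%) of the control reads that began at nt 1 and 23.8% (22.9 to 24.8%) of the Dicer KD reads. In miR-30d the same class was at 15.01% (13.3 to 16.9%) and 14.6% (12.9 to 16.5%). Among the 11 forms of the family that reached 100 reads, the 24-nt miR-30e read given above had the highest ratio, and the smallest, 0.908 (0.706 to 1.17), that of the 23-nt miR-30d read tGTAAACAtccccgactggaagc, with 136 and 125 reads.

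A few reads ended in a base that the most abundant form does not have there. In miR-30a, forms that departed in their last base alone had 144 control and 149 Dicer KD reads, and mostly the base was A, in 219 of 293 reads of both libraries. The commonest of these, tGTAAACAtcctcgactggaaga, had 38 and 64 reads, a ratio of 1.66 (1.10 to 2.55). A 19-nt form with A at its end, tGTAAACAtcctcgactga, went the other way, with 48 and 29 reads. Forms 1 base longer than the 24-nt read ended mostly in T. For miR-30a the added T had 21 and 39 reads, a ratio of 1.83 (1.05 to 3.28), and for miR-30d 22 and 42 reads, 1.89 (1.10 to 3.32). Whether such bases are encoded in the hairpins or added after cutting was not tested.

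The 5' end, which sets the seed, was nearly fixed among the reads that the rule could count. A read that began after nt 2 could not be counted, because a member read has to hold nt 2. Reads that began at nt 1 were 99.4% (99.2 to 99.5%) of the control family reads and 99.3% (99.1 to 99.5%) of those with Dicer KD, and all of the rest began at nt 2. For miR-30b, miR-30c and miR-30d every read began at nt 1. miR-30e had the loosest 5' end, with 8.06% (2.67 to 17.8%) and 11.03% (6.31 to 17.5%) of its reads beginning at nt 2, on 5 and 15 reads, against 0.737% (0.542 to 0.979%) and 0.664% (0.4995 to 0.866%) for miR-30a. The most frequent of these, GTAAACAtccttgactggaagct, had 2 and 10 reads. The capitals mark the bases of the family seed, which begin at nt 1 of this read, so that its own seed is shifted by 1 nt. Another minor miR-30e form that was more frequent with Dicer KD was the 24-nt read with 1 added T, tGTAAACAtccttgactggaagctt, with 0 and 10 reads.

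Since miR-30a is abundant and miR-30d and miR-30e each differ from it at 1 base, reads 1 substitution away from miR-30a at other positions were counted too. They were rare except for C-to-T changes at nt 10 and 11, near nt 13, the position that defines miR-30e.
C10T: tGTAAACAttctcgactggaagct
C11T: tGTAAACAtcttcgactggaagct
miR-30e (C13T): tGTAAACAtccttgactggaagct
Reads with C10T in nt 2 to 18 numbered 81 and 74, or 1.28 per 100 miR-30a reads (1.02 to 1.59) in control and 0.917 (0.719 to 1.15) in Dicer KD oocytes. Reads with C11T numbered 59 and 64, or 0.932 (0.709 to 1.20) and 0.793 (0.610 to 1.01). miR-30e, counted the same way from reads that began at nt 1, numbered 57 and 121, or 0.901 (0.681 to 1.17) and 1.499 (1.24 to 1.79). In the control library the 3 intervals overlapped, and in the Dicer KD library the interval of miR-30e lay above those of C10T and C11T. The C-to-T changes at nt 7 and nt 16 had 3 and 3 reads and 1 and 0 reads. Over all 49 single changes of miR-30a that give no listed miRNA, the median was 0 per 100 control reads and 0.0124 per 100 Dicer KD reads.

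**Figure D4:**
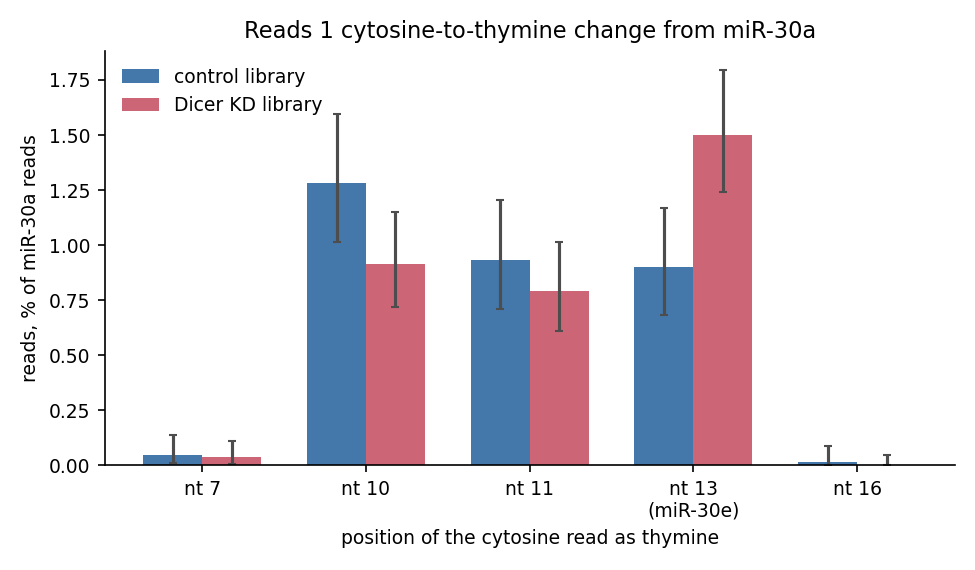
Reads with 1 cytosine read as thymine at each cytosine of nt 2 to 18 of miR-30a, per 100 miR-30a reads that began at nt 1, with exact 95% intervals for the ratio of 2 counts. The changes at nt 10 and 11 stand near the level of miR-30e (nt 13) in the control library, and miR-30e stands higher in the Dicer KD library.

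In 3 abundant miRNAs chosen for comparison after these values were seen, such reads were rarer. Their C-to-T changes reached 0.0730 per 100 reads in miR-10b, 0.144 in miR-205 and 0.506 in miR-148a (C17T), all in the control library. In miR-30d, C11T had 11 and 19 reads, or 0.712 and 1.27 per 100 reads, and C10T had 0 and 0. In miR-30e these changes were more frequent, though on few reads. There C11T had 8 and 8 reads, or 12.9 and 5.88 per 100 miR-30e reads, and C10T had 0 and 5, or 0 and 3.68. miR-30d itself, as T12C of miR-30a, stood at 24.4 and 18.6 per 100 miR-30a reads, far above the T-to-C changes at other positions of miR-30a, which reached 0.0158 and 0.0372. The miR-30e, C10T and C11T reads were also set side by side by ratio, 5' start and length. The ratio between the libraries was 2.17 for miR-30e, 0.902 (0.649 to 1.252) for C10T and 1.07 (0.740 to 1.55) for C11T. Of the 198 miR-30e reads, 10.1% began at nt 2. So did 0 of 155 with C10T and 0 of 123 with C11T, while for miR-30a, too, such starts were rare, at 0.697% of its reads. Reads of 24 nt were 72.7% of the miR-30e reads, 51.6% of those with C10T, 54.5% of those with C11T and 74.3% of the miR-30a reads. How many of the reads counted as miR-30e arose from miR-30a was not tested.

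The 3p strands of the hairpins were seen for miR-30a, miR-30c, miR-30d and miR-30e, at levels that did not follow the 5p strands. Capitals mark nt 2 to 8 again, and those of miR-30a-3p, miR-30d-3p and miR-30e-3p are the same.
miR-30a-3p: cTTTCAGTcggatgtttgcagc
miR-30e-3p: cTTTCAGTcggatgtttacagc
miR-30d-3p: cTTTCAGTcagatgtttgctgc
miR-30c-1-3p: cTGGGAGAgggttgtttactcc
miR-30c-2-3p: cTGGGAGAaggctgtttactct
miR-30a-3p had 1018 control and 998 Dicer KD reads, or 86.0 RPM (80.8 to 91.5) and 83.3 RPM (78.2 to 88.6), a ratio of 0.968 (0.886 to 1.06). Its 5p partner was higher in the Dicer KD library, so the 3p share of the hairpin's reads went from 13.8% (12.99 to 14.6%) to 10.9% (10.3 to 11.6%). Over all 3p arms, with 1166 and 1181 reads, the ratio was 1.0 (0.922 to 1.09), against 1.21 (1.17 to 1.24) for the 5p arms.

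miR-30e was the member whose 3p strand was as abundant as its 5p strand or more so. miR-30e-3p had 123 and 143 reads, or 10.4 RPM (8.64 to 12.4) and 11.9 RPM (10.1 to 14.1), a ratio of 1.15 (0.896 to 1.47). It made up 66.5% (59.2 to 73.2%) of the control reads of both strands and 51.3% (45.2 to 57.3%) of the Dicer KD reads. miR-30e-3p parts from miR-30a-3p by G18A within nt 2 to 18 and, among reads that began at nt 1, stood at 12.8 and 14.8 per 100 miR-30a-3p reads. The G-to-A change at nt 10, which gives miR-30d-3p over that stretch, stood at 0.334 and 0.893, and those at positions that give no listed arm reached 0 and 0.446. The ratio of miR-30e-3p was lower than the 2.17 of the reads counted as miR-30e-5p, with intervals that did not overlap. The 3p share takes all of those 5p reads as miR-30e, and the part of miR-30a in them was not tested.

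The remaining hairpins gave few 3p reads. miR-30d-3p had 4 and 9 reads, so that 0.258% (0.0704 to 0.659%) and 0.597% (0.273 to 1.13%) of the reads of this hairpin were 3p, the lowest share among members with any 3p read. The arms of the 2 miR-30c hairpins had 9 and 11 reads (miR-30c-1-3p) and 12 and 20 reads (miR-30c-2-3p), together 19.3% (12.3 to 27.9%) and 20.9% (14.7 to 28.4%) of miR-30c reads. No read matched the bases used to find miR-30b-3p. The limit used here for a count of 0 is 3 reads in a library, or 0.253 RPM (control) and 0.2504 RPM (Dicer KD).

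**Figure D5:**
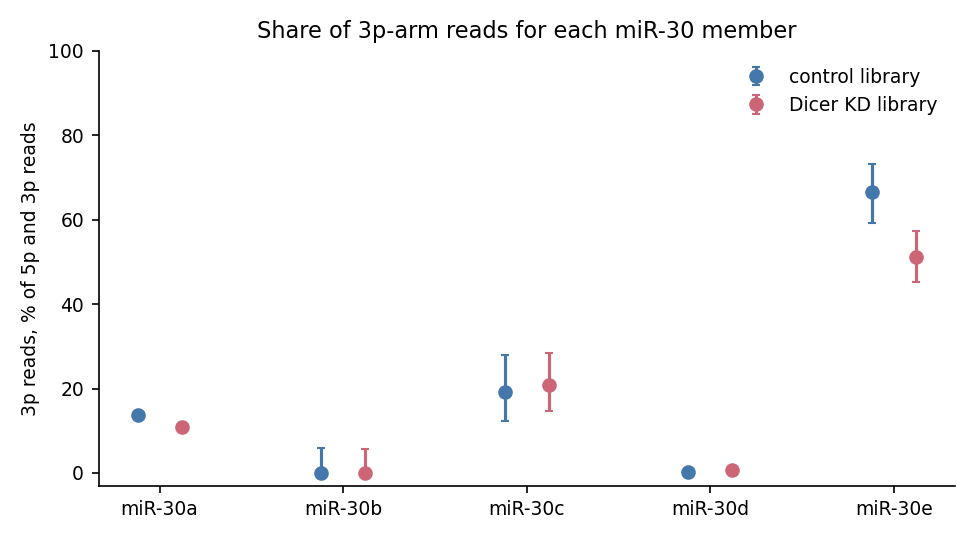
Share of 3p reads among the 5p and 3p reads of each member, with exact 95% binomial intervals. miR-30e lies highest, at 66.5% and 51.3%, miR-30a at 13.8% and 10.9%, and miR-30d and miR-30b near 0.

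Reads with the family seed at nt 2 to 8 were nearly all family reads. They numbered 8303 (control) and 10124 (Dicer KD), of which 97.3% and 97.5% were members and 2.10% and 1.95% lay 1 mismatch from a member. The rest, 50 and 54 reads, belonged to other sequences. Reads longer than 26 nt that held a member numbered 22 and 27, and no read of either library was antisense to nt 2 to 18 of a member. Of the 112 distinct family sequences, 50 were seen in both libraries, and they carried 99.4% of control and 99.3% of Dicer KD family reads.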

How the data were processed

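Small RNA of oocytes was sequenced after adapter ligation, reverse transcription and PCR, per the labels' protocols. For either library there is 1 deposited table that gives raw read counts and lengths for every distinct sequence, without normalization by the authors. According to the submitters' processing notes Bowtie2 was used. Which version, which genome build and what trimming are not given in the sources used here. Members and lists were chosen with earlier results of these data known.

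No table of mature miRNA sequences was used. Each member was found by the family seed and the bases from nt 12 (and nt 19 for miR-30b and miR-30c) that tell members apart, which are background knowledge, and its most abundant read served as its form. The 94 other miRNA entries and the 3p arms were found in the same way, from the seed and bases from nt 9 on. Entries identical from nt 2 to 18 were counted as 1. The design had planned a reference table for these, so the background covers only listed miRNAs, and the most abundant read stands in for the full mature form. From the top reads, 1 entry was renamed and 1 left out.

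RPM values are reads scaled to 1000000 reads of the library. Intervals are exact (Poisson, Clopper-Pearson or conditional binomial) at 95%, and log2 ratios had 0.5 reads added to each count. Named forms were the most abundant read of each member and those with at least 100 reads and the largest ratio in each direction. Beyond that rule, other forms, named substitutions, locus sums and end bases were chosen after the values were seen. The intervals and the 2-fold rule were tested on simulated Poisson counts with known ratios. These ratios were either unchanged or well beyond 2-fold, so the rule was not tried near its own line, where miR-30e lies. The simulated counts held no PCR copies and no spread between libraries, so how either affects the intervals was not tested. Python 3.11.15, numpy 2.4.6, pandas 2.3.3, scipy 1.17.1 and matplotlib 3.10.9 were used.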

Additional observations from a re-analysis of the deposited data

How the results depend on the processing

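The family ratio stayed above 1 in all 11 alternatives, between 1.15 and 1.247. It moved past its interval relative to reads of 18 to 26 nt, with 1.247 (1.21 to 1.28), and with each distinct sequence counted once, with 1.15 (0.837 to 1.59). The count of 1 called member became 0 for the most abundant read alone and 0 with a minimum of 500 reads, under which 2 members could be called. It stayed at 1 in the 11 other alternatives. The 15 called among the 55 other miRNAs became 23 of 74 with a minimum of 20 reads and 9 of 33 with 500, because the number tested changed. miR-30b, at a ratio of 1.004, fell to 0.996 relative to listed miRNA reads, to 0.984 without sequences of 1 read and to 0.988 with 1 mismatch allowed. miR-30e ran from 1.79 to 2.27, miR-30a from 1.22 to 1.30, miR-30d from 0.95 to 0.989 and miR-30c from 1.28 to 1.497. Depth limits miR-30b, miR-30c and miR-30e, each with at most 136 reads in a library. No paired analysis was possible because each group is 1 library.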
